A study of Mus musculus with 2 samples.

Results

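Retinoid genes were described here in tdTomato+ cells of adult mouse skeletal muscle (SkM). The 9 genes were chosen by symbol and cover retinoid synthesis (*Adh1*, *Aldh1a1*, *Aldh1a2*, *Aldh1a3*), binding (*Rbp4*, *Crabp1*, *Crabp2*) and the retinoic acid receptors *Rarb* and *Rarg*. Each of the 9 had 1 row among the 28001 features of both count matrices. The question asked of them was where, among the fibroblast subsets and the other cell classes of the 2 libraries, each gene was high or low.

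Retinol reaches tissues in the blood bound to RBP4, and cells oxidize it in a pair of steps. Alcohol and retinol dehydrogenases make retinaldehyde, and the retinaldehyde dehydrogenases ALDH1A1, ALDH1A2 and ALDH1A3 make retinoic acid. CRABP1 and CRABP2 bind retinoic acid inside the cell, the former usually linked to its turnover and the latter to its delivery to the nucleus, where receptors (RARs) paired with RXRs bind DNA. CYP26 enzymes break retinoic acid down. In the limb, retinoic acid made in proximal mesenchyme takes part in patterning, and connective tissue cells of adult organs remain a known place of its synthesis.

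On GRCm38, the assembly that mm10 stands for, GENCODE M21 places *Aldh1a1* (ENSMUSG00000053279) at chr19:20492715-20643465 and *Rbp4* (ENSMUSG00000024990) at chr19:38116629-38125281, the latter on the minus strand. *Aldh1a2* (ENSMUSG00000013584) lies at chr9:71215789-71296243 and *Crabp1* (ENSMUSG00000032291) at chr9:54764748-54773110, both on the plus strand. *Adh1* (ENSMUSG00000074207) lies at chr3:138260991-138290698 and *Crabp2* (ENSMUSG00000004885) at chr3:87948666-87953376, also on the plus strand. *Aldh1a3* (ENSMUSG00000015134, chr7:66390890-66427517), *Rarb* (ENSMUSG00000017491, chr14:16430839-16819156) and *Rarg* (ENSMUSG00000001288, chr15:102234938-102257517) are on the minus strand. Each value below is a sum over the whole gene.

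*Rarb* is a textbook target of retinoic acid itself, through a direct repeat with 5 bases between its hexamers (DR5) in its promoter, and that sequence is shown because it joins a receptor of this gene set to the acid that the enzymes make. RefSeq promoters (GRCm38.p6, 250 bases before to 50 after each start) were at hand for 7 of the 9 genes, 10 promoters in all, with none for *Aldh1a3* and *Crabp2*. The search used AGGTCA, the consensus hexamer that nuclear receptors bind, and AGTTCA, a variant common in sites of retinoic acid receptors. It also used GGGTCA, another variant often found in such sites, and finally GGTTCA, the variant that opens the site printed here. Direct repeats of them on both strands, with 1, 2 or 5 bases between, were counted. The set includes the hexamers of the known *Rarb* element, so its match follows from the choice and is shown as background. It was a DR5 on the strand of the gene from 53 to 37 bases before the start, at chr14:16575513-16575529, and the other promoters held no repeat of these letters. In its surroundings, chr14:16575507-16575535 on the minus strand, capitals mark both hexamers:
Rarb DR5: gggaagGGTTCAccgaaAGTTCActcgca
The DR5 arrangement of these letters was in 32 of 32851 promoters of the same length (0.0974%), a DR1 in 73 (0.222%) and a DR2 in 88 (0.268%). Exons of 2 GENCODE transcripts of *Rarb* overlap the site. Matches are a description of letters, and a promoter without one says only that these letters are not in its window.

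Mice were Hic1CreERT2/CreERT2;Rosa26LSLtdTomato/tdTomato on C57BL/6J, so both *Hic1* alleles carried the tamoxifen (TAM)-inducible Cre in each group, and cells that had *Hic1* active when TAM was given, and their progeny, were tdTomato+. For the E10-P56 library the dam received 7.5 mg TAM at embryonic day (E)10 by gavage and SkM was taken at postnatal day (P)56. The study's methods for tracing embryos into adulthood also describe progesterone given with TAM, caesarean delivery and cross-fostering with a CD1 litter. For the adult-pulse library TAM was given from 8 weeks of age in 5 daily doses of 2.5 mg. Its labels also give collection at P56, which is 8 weeks of age and leaves no time for the 5 doses. The study's text gives a later day, and the exact day was not settled here. The methods describe pooled muscles from 2 hindlimbs and a sort that excluded cells with blood and endothelial surface proteins.

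There was 1 library per labelling time, counted with different Cell Ranger versions. Labelling time, time since TAM, age at collection, progesterone, delivery and fostering, library and software therefore cannot be told apart, and no test between groups was possible. E10-P56 held 8236 barcodes with 67460919 UMIs, of which 6087 cells were kept (median 7648 UMIs), and the adult pulse held 9195 barcodes with 69153173 UMIs, of which 8567 were kept (median 7344 UMIs). Among kept cells, 11 barcodes occurred in both libraries. Levels are UMIs of a gene summed over a population scaled to counts per 1e6 UMIs of that population (CPM), with exact 95% Poisson intervals in parentheses, which cover counting error only. Levels were compared within a gene across populations, never between genes. A class was named "-like" where its markers led it, and the fibroblast-like class was split further into clusters named by their leading genes, for example the *Dmkn Sbsn* cluster.

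Fibroblast-like cells were the bulk of both libraries, 4053 of 6087 cells (E10-P56) and 7049 of 8567 (adult pulse). In E10-P56 they formed 9 clusters, of which *Kcnk2 Smoc2* (348 cells) met the markers of the *Hmcn2/Smoc2* subset, *Bmp3 Car8* (983) those of the *Pi16* subset, *Car3 Fabp4* (726) *Apoe/Cxcl13*, *Comp Stmn2* (179) *Clu/Meox1* and *Il1rl1 Fosl1* (240) the inflammatory subset. *Col8a1 Cilp* (1086), *Ctla2a Cpz* (284) and *Fmo2 Clec11a* (117) kept no subset name. The *Col8a1 Cilp* cluster met *Hmcn2* and *Smoc2* of the *Hmcn2/Smoc2* list, too few markers for the name, and *Hmcn2* was among its leading genes. It also met *Cilp* and *Thbs4* of the *Clu/Meox1* list and *Stmn4* of the *Pi16* list. The *Kcnj8 Tmem238* cluster (90 cells) met the markers of activated fibroblasts, but was shallow and led by the pericyte genes *Kcnj8* and *Ndufa4l2*. For the adult pulse, *Kcnk2 Thbs4* (2444) met *Hmcn2/Smoc2*, *Dmkn Sbsn* (1481) and *Fam167a Stmn4* (1407) met *Pi16*, *Clu Ptn* (675) met *Clu/Meox1*, *Fabp4 Apoe* (618) met *Apoe/Cxcl13* and a cluster led by *Fmo2* (424) was unnamed. A cluster of E10-P56 with 330 cells met the cycling markers and was led by *Slc16a3*, *Mki67* and *Top2a*, yet 239 of its cells held no UMI of any of the 9 cycling markers. Among its 10 leading genes were also *Serpinb2*, *Saa3* and the activated fibroblast markers *Tnc* and *Lrrc15*. The cluster is called the *Mki67*-led cluster here, after a leading gene and not after a state shared by its cells. In the joint clustering 29 adult cells fell into the same cluster. A further cluster of 75 E10-P56 cells (and 1 adult cell) met no class list and had a median of 16050 UMIs. It was led by *Cxcl5*, *Cxcl3* and *Ccl2* and is called the *Cxcl5*-led cluster. Subset lists were tried only on fibroblast-like cells, so not on this cluster. Its leading genes included *Cxcl5*, *Ccl2* and *Ccl7* of the inflammatory list.

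**Figure D1:**
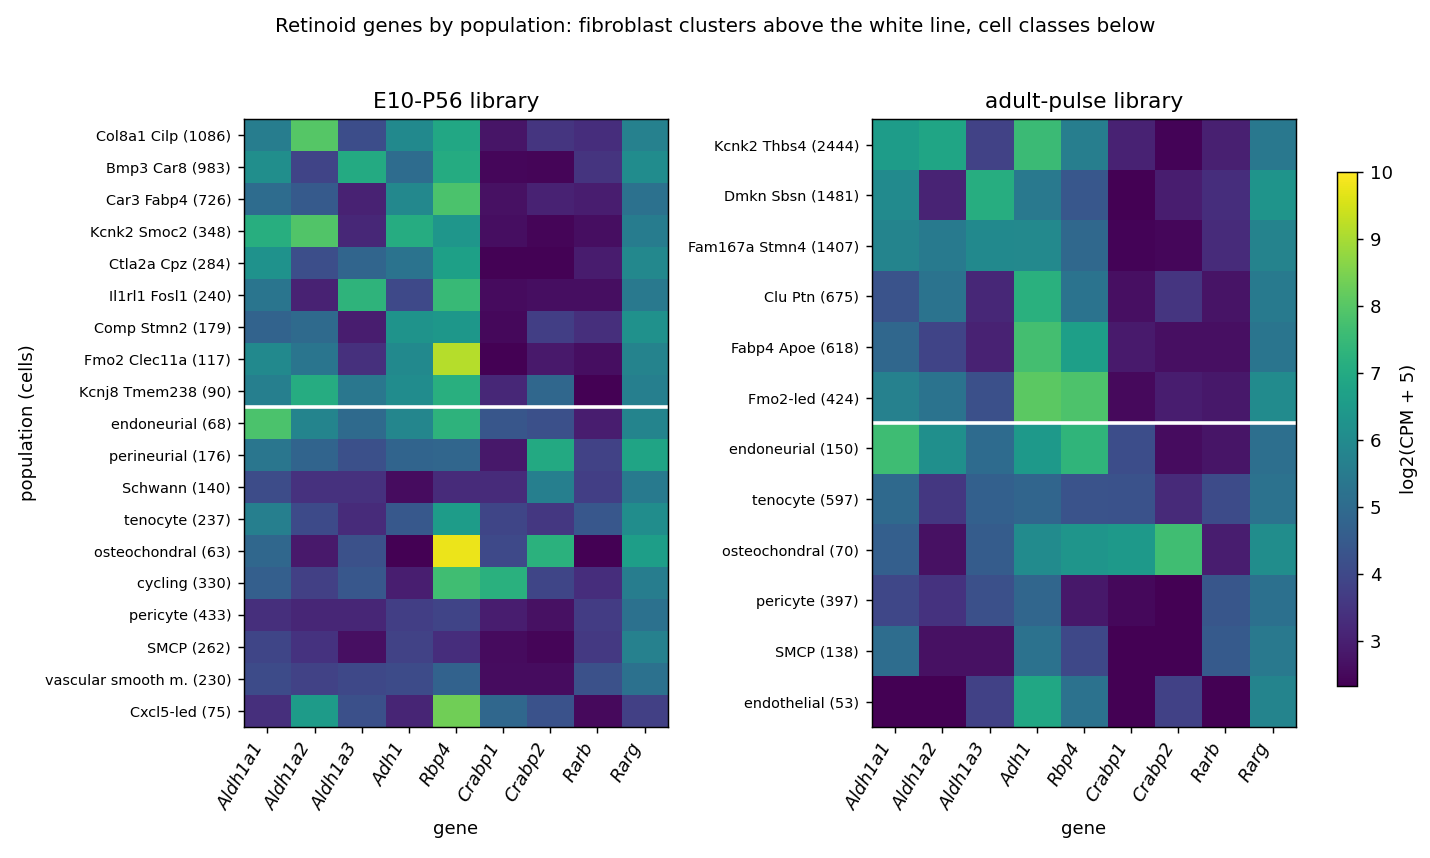
Heat map of log2(CPM + 5) for the 9 genes (columns) in each fibroblast cluster and cell class of 50 cells or more (rows, with numbers of cells) of both libraries, to be read within a column. *Aldh1a2* was bright in the *Col8a1 Cilp* and *Kcnk2*-led clusters, *Aldh1a3* in the *Bmp3 Car8*, *Il1rl1 Fosl1* and *Dmkn Sbsn* clusters, and *Crabp2* outside the fibroblast clusters.

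*Aldh1a2*, the retinaldehyde dehydrogenase that makes most retinoic acid in embryonic mesoderm, was concentrated in a few fibroblast clusters. In E10-P56 its level was 245 CPM (235–255) in the *Col8a1 Cilp* cluster and 237 CPM (218–256) in the *Hmcn2/Smoc2* subset, which did not differ beyond their intervals. The *Kcnj8 Tmem238* cluster followed at 130 CPM (88.8–183) and the *Cxcl5*-led cluster at 87.7 CPM (72.6–105; 119 UMIs in 21 cells), which overlapped, and all other populations were at 50.3 CPM or less, with 9.94 CPM (7.92–12.3) in the *Pi16* subset and 3.26 CPM in the inflammatory subset. Among adult-pulse cells the order began with the *Hmcn2/Smoc2* subset at 109 CPM (104–114) and endoneurial-like cells at 66.3 CPM (52.0–83.3). The latter had 73 UMIs in 21 of 150 cells, 63.0% of them in the 5 highest cells. In the *Cxcl5*-led cluster of E10-P56 the 5 highest cells held 72.3%. The *Pi16* clusters of the adult pulse lay far apart from each other, with 39.8 CPM (36.4–43.3) in *Fam167a Stmn4* and 3.47 CPM (2.50–4.69) in *Dmkn Sbsn*. The same concentration was seen per cell. In E10-P56, 47.1% of *Col8a1 Cilp* cells and 4.37% of *Pi16*-subset cells had an *Aldh1a2* UMI. In pericyte-like cells, which were shallower (median 3137 UMIs against 8468 in all fibroblast-like cells), the share was 1.15%. With each cell thinned to 1500 UMIs the shares were 25.1%, 1.53% and 0.231%. In the adult library, 27.5% of *Hmcn2/Smoc2* cells and 1.89% of *Dmkn Sbsn* cells had one before thinning, and 10.8% and 0.27% after it, against 1.01% and 0.252% of pericyte-like cells (median 3215 UMIs).

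*Aldh1a3*, the retinaldehyde dehydrogenase known best from the eye and nasal region, had another pattern. In E10-P56 it stood at 155 CPM (142–168) in the inflammatory subset and 125 CPM (117–132) in the *Pi16* subset, and at 4.12 CPM (2.05–7.37) in the *Hmcn2/Smoc2* subset. The *Cxcl5*-led cluster, which shared leading genes with the inflammatory subset, had 13.3 CPM (7.86–21.0). In the adult pulse *Aldh1a3* stood at 132 CPM (125–139) in *Dmkn Sbsn* and 56.9 CPM (52.9–61.2) in *Fam167a Stmn4*, and at 9.24 CPM (7.92–10.7) in the *Hmcn2/Smoc2* subset. Its adjacent levels at the top did not overlap in either library, and the next below, 36.5 CPM in the *Kcnj8 Tmem238* cluster and 27.2 CPM in adult endoneurial-like cells, shared their intervals with several populations. Cells with an *Aldh1a3* UMI made up 40.8% of the *Pi16* subset and 2.87% of the *Hmcn2/Smoc2* subset of E10-P56 (14.1% and 0.287% after thinning), and 1.15% of pericyte-like cells (0.462%). For the adult pulse they made up 42.7% of *Dmkn Sbsn* and 6.22% of *Kcnk2 Thbs4* cells (15.8% and 1.27% after thinning).

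The *Hmcn2/Smoc2* and *Pi16* subsets, named in both libraries, differed in 4 genes by 2-fold or more in each library. In E10-P56 *Aldh1a2* was 23.8-fold higher (18.9–30.3), *Adh1* 4.59-fold higher (3.88–5.45) and *Aldh1a1* 2.12-fold higher (1.85–2.42) in *Hmcn2/Smoc2*, and *Aldh1a3* was 30.3-fold lower (16.8–60.8). The log2 ratio of *Aldh1a2* there was 4.57 and ran from 2.32 to 4.90 over 9 settings of the processing. Of the 6 members with enough UMIs to compare, 3 were thus higher and 1 lower, where 6.39% and 6.28% of all genes compared were. After adult labelling *Aldh1a2* was 4.87-fold higher (4.43–5.35), *Adh1* 3.87-fold higher (3.62–4.14) and *Rbp4* 2.06-fold higher (1.84–2.30), and *Aldh1a3* was 10.0-fold lower (8.61–11.8), 3 higher and 1 lower of 7, where 6.32% and 5.29% of all genes were. *Rbp4* went the other way in E10-P56, with a ratio of 0.607. *Aldh1a1* passed 2-fold in E10-P56 in 3 of the 9 settings that gave a value, and its adult ratio was 1.66.

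Within fibroblast-like cells, *Aldh1a3* was found in a smaller share of cells with *Aldh1a2* than of cells without it. At 1500 UMIs per cell, 1.69% (0.586–3.43) of cells with an *Aldh1a2* UMI also had one of *Aldh1a3* in E10-P56, against 5.73% (5.01–6.54) of cells without. Among adult-pulse cells the shares were 2.72% (1.26–4.76) and 5.71% (5.17–6.30). Shares here are expectations over all ways of thinning a cell, and their intervals come from counts rounded to whole cells. Neither pair of intervals overlapped. The shares pool all fibroblast-like clusters, and *Aldh1a2* and *Aldh1a3* peaked in different ones. They do not show whether the same holds within a cluster. *Adh1* was found more often in cells with *Aldh1a2*, in 13.4% against 6.59% in E10-P56 and in 23.8% against 15.6% in the adult pulse.

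*Adh1*, an alcohol dehydrogenase that also oxidizes retinol, was highest in fibroblast-like clusters in both libraries. In E10-P56 the *Hmcn2/Smoc2* subset led with 129 CPM (115–143), apart from the *Clu/Meox1* subset at 71.5 CPM (58.7–86.2), below which 5 populations between 60.9 and 53.0 CPM did not differ beyond their intervals. In the adult library the *Fmo2*-led cluster reached 264 CPM (246–283), the *Apoe/Cxcl13* subset 205 CPM (193–217), the *Hmcn2/Smoc2* subset 184 CPM (178–190) and the *Clu/Meox1* subset 143 CPM (132–153), the first 4 in the order. The 53 endothelial-like cells came next, at 114 CPM (73.7–168), and overlapped the *Clu/Meox1* subset. The 20 endothelial-like cells of E10-P56, too few for its order, had 121 CPM (58.0–222). The *Pi16* clusters were low in both libraries, with 28 CPM in E10-P56 and 56.2 and 38.2 CPM in the adult pulse. The *Mki67*-led cluster held 2.88 CPM, 17.1-fold less than fibroblast-like cells. Osteochondral-like cells of E10-P56 had no *Adh1* UMI (0 CPM, 0–8.34), while those of the adult pulse had 59.9 CPM, from 45 UMIs in 13 of 70 cells, 80% of them in the 5 highest cells.

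*Aldh1a1*, a retinaldehyde dehydrogenase whose activity is widely used to mark stem cells, was highest in endoneurial-like cells, the fibroblasts inside nerves, at 223 CPM (178–276) in E10-P56 and 190 CPM (165–217) in the adult pulse. This was 4.28-fold (3.40–5.32) and 3.22-fold (2.78–3.70) its level in fibroblast-like cells. Next came the *Hmcn2/Smoc2* subset, at 136 CPM (122–151) and 90.0 CPM (85.8–94.4), each apart from the populations above and below. Pericyte-like cells lay low, at 5.20 CPM (2.24–10.2) and 10.5 CPM. *Aldh1a1* was detected in 44.1% of endoneurial-like cells of E10-P56 and 62.0% of those of the adult pulse (20.6% and 24.7% after thinning), against 1.39% of pericyte-like cells of E10-P56 (0.924%), at median depths of 4521.5 and 6673 UMIs for the former and 3137 for the latter. The endoneurial-like class of E10-P56 held 68 cells, and the level of *Aldh1a1* in it ran from 88.5 CPM, at a clustering resolution of 1.0, to 251 CPM over 10 settings. *Aldh1a7*, a near-identical neighbour of *Aldh1a1* at chr19:20692953-20727562, had 74.2 CPM in endoneurial-like cells of E10-P56 and 13.6 CPM in those of the adult pulse, against 0.0734 and 0.086 CPM in fibroblast-like cells, and reads may have been split between these genes.

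**Figure D2:**
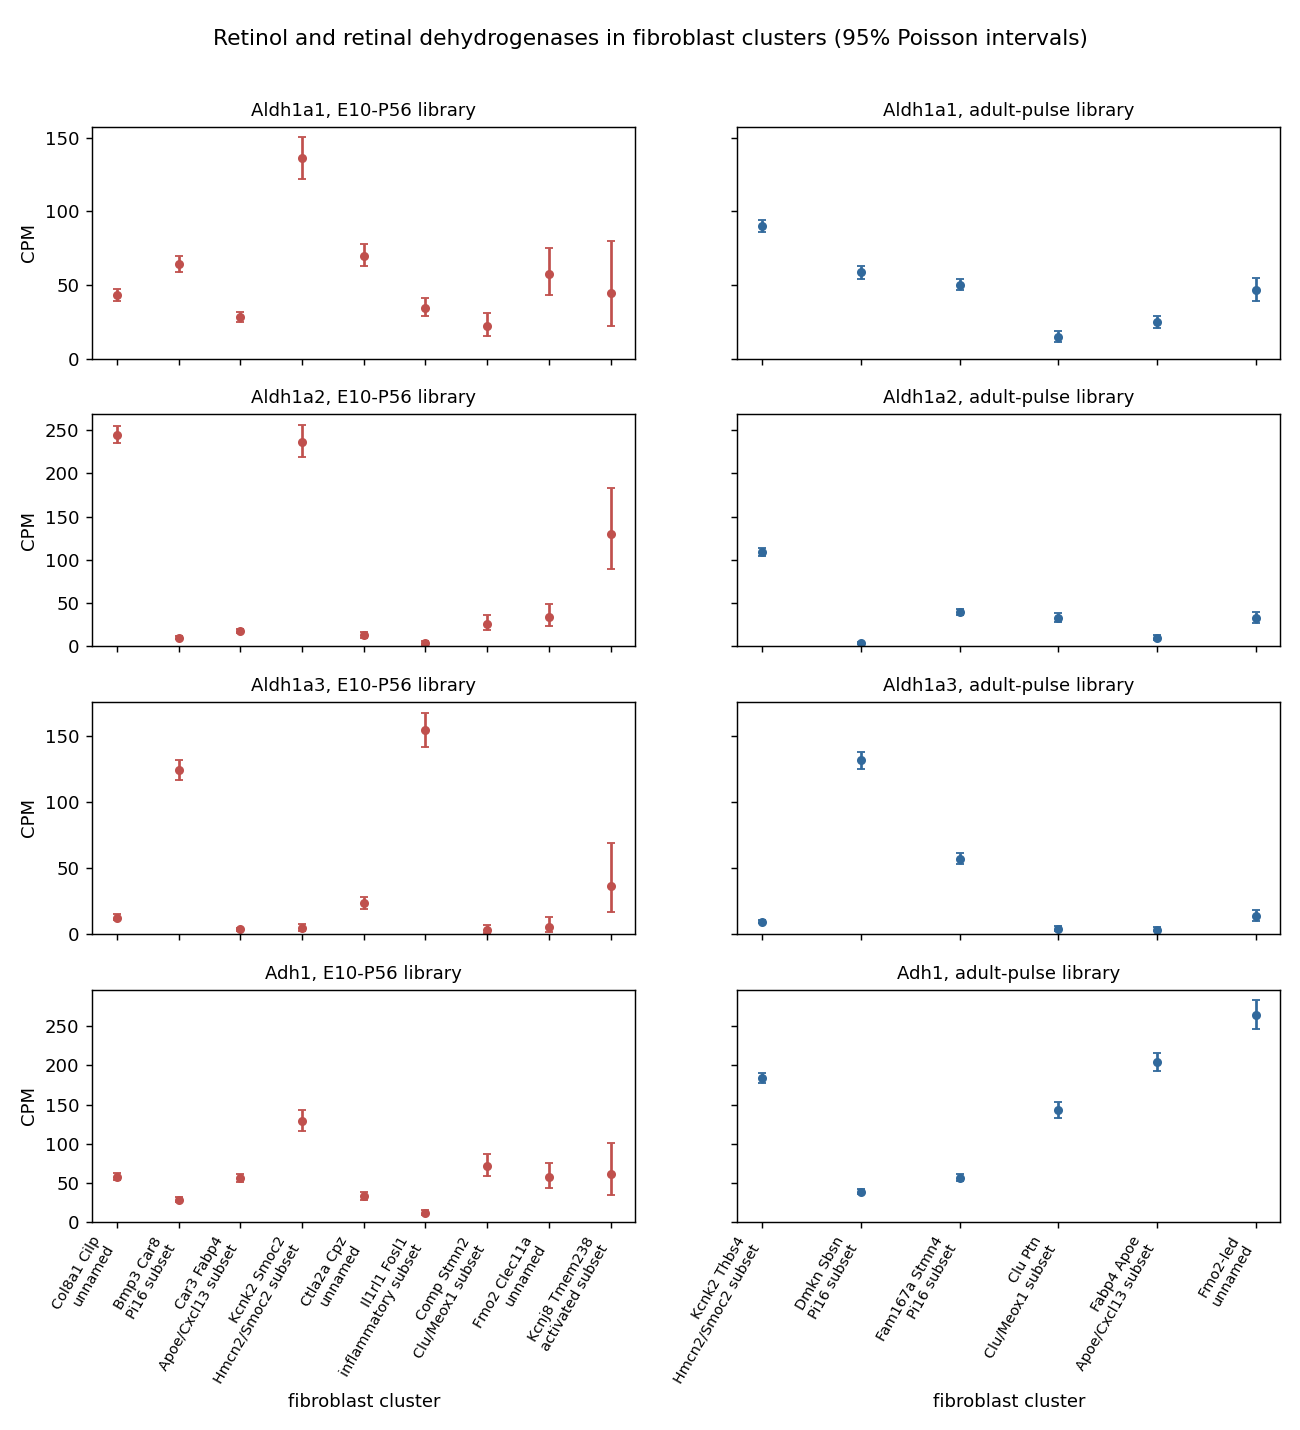
CPM (y axis, linear, its own scale for each gene) of *Aldh1a1*, *Aldh1a2*, *Aldh1a3* and *Adh1* in each fibroblast cluster (x axis) of E10-P56 (left) and the adult pulse (right), with exact 95% Poisson intervals as bars. *Aldh1a2* and *Aldh1a3* peaked in different clusters of each library, in E10-P56 in *Col8a1 Cilp* (245 CPM) and *Il1rl1 Fosl1* (155 CPM). They stood at 237 and 4.12 CPM in the *Hmcn2/Smoc2* subset of E10-P56 and at 9.94 and 125 CPM in its *Pi16* subset.

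*Rbp4*, the retinol carrier of plasma, was highest in osteochondral-like cells of E10-P56, at 875 CPM (790–967), with a UMI in 51 of 63 cells (81.0%). The *Fmo2 Clec11a* cluster followed at 565 CPM (517–616), the *Cxcl5*-led cluster at 315 CPM (286–347) and the *Apoe/Cxcl13* subset at 220 CPM (210–230), each apart from its neighbours. In the adult pulse the *Fmo2*-led cluster led at 226 CPM (209–243), before endoneurial-like cells at 157 CPM (135–182) and the *Apoe/Cxcl13* subset at 95.1 CPM (87.5–103). Osteochondral-like cells of that library had 74.5 CPM (56.3–96.8), with a UMI in 26 of 70 cells (37.1%). Thinned to 1500 UMIs, the shares of osteochondral-like cells were 52.4% and 8.57%. Pericyte-like cells had a UMI in 2.31% and 0.756% of cells. The mural and Schwann-like classes held the least *Rbp4* in E10-P56, and pericyte-like cells were 15.5-fold and 24.0-fold below fibroblast-like cells. The osteochondral-like classes were not alike in their own markers: *Acan* was at 385 CPM and *Col2a1* at 317 CPM in E10-P56 against 21.3 and 0 CPM in the adult pulse, and *Bglap* at 95 against 600 CPM. The part of these marker differences in the *Rbp4* level was not tested. The joint cluster behind both classes met *Sox9*, *Acan*, *Chad* and *Bglap* of the osteochondral list. It also met *Scx*, *Tnmd*, *Fmod*, *Thbs4*, *Col11a1*, *Comp* and *Mkx* of the tenocyte list. The part of the tenocyte markers in the *Rbp4*, *Crabp1* and *Crabp2* levels of these classes was not tested.

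*Crabp1*, a binding protein of retinoic acid that many embryonic mesenchymal cells express, was nearly absent from fibroblast-like cells, at 1.05 and 1.55 CPM. In E10-P56 it was at 141 CPM (134–149) in the *Mki67*-led cluster, 134-fold (99.0–186) above fibroblast-like cells. The *Cxcl5*-led cluster followed at 24.3 CPM (16.7–34.1), from 33 UMIs in 9 cells, and all other populations of 50 cells or more were at 15.9 CPM or less. Its level there ran from 140 to 234 CPM over 10 settings. Its 1374 UMIs there came from 89 of the 330 cells (27.0%), with 123 in the highest cell and 27.4% of all in the 5 highest. Thinned to 1500 UMIs, 9.70% of the *Mki67*-led cells and 0.123% of fibroblast-like cells had a UMI. The cells of the *Mki67*-led cluster had a median of 27305 UMIs, against 8468 in fibroblast-like cells. *Crabp1* was not confined to cells with cycling transcripts: the 61 cells of that cluster with 2 or more UMIs of cycling markers had 172 CPM (155–190), and the 239 with 0 had 119 CPM (111–128). It was higher in the 246 cells with 3 or more UMIs of activated fibroblast genes, at 156 CPM (147–165), than in the 18 cells with 0, at 63.8 CPM (43.6–90.1). Outside that cluster, 450 fibroblast-like cells with 3 or more such UMIs, a cut not adjusted for depth, had 1.01 CPM. *Csf1r*, an immune marker, was at 90.0 CPM in the *Mki67*-led cluster, with each other immune marker at 0.925 CPM or less. The part of depth and of these markers was not tested.

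For the adult pulse *Crabp1* was highest in osteochondral-like cells, at 82.5 CPM (63.3–106), but its 62 UMIs came from 10 of 70 cells and 35 of them from 1 cell, and the level was 40.7 CPM with a minimum of 3000 UMIs. Tenocyte-like cells had 14.3 CPM (11.1–18.2) and endoneurial-like cells 12.7 CPM, 9.24-fold and 8.21-fold above fibroblast-like cells. In E10-P56 the tenocyte-like class had 10.1 CPM, from 15 UMIs. The 29 adult cells that fell into the same joint cluster as the *Mki67*-led cells held 14 *Crabp1* UMIs in 5 cells, or 24.1 CPM.

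*Crabp2*, the binding protein tied to delivery of retinoic acid to its receptors, was high in osteochondral-like cells of both libraries, at 145 CPM (111–185) and 197 CPM (167–231). These were 64 UMIs in 19 of 63 cells and 148 UMIs in 34 of 70 cells, 49.3-fold and 127-fold above fibroblast-like cells. With a minimum of 3000 UMIs per cell the levels were 60.4 and 87.9 CPM. Perineurial-like cells, which form the sheath of nerve bundles, had 121 CPM (99.7–145) in E10-P56, from 116 UMIs in 42 of 176 cells, and did not differ from osteochondral-like cells beyond their intervals. After adult labelling the 36 perineurial-like cells had 112 CPM (67.2–174). Schwann-like cells of E10-P56 had 44.9 CPM (33.1–59.5), from 48 UMIs in 24 of 140 cells, and that class also carried perineurial markers, with *Wnt6* at 154 CPM, *Cldn1* at 429 CPM and *Ptch1* at 336 CPM against 454, 1026 and 697 CPM in the perineurial-like class. Their part in the Schwann-like level was not tested. Fibroblast-like cells had 2.94 and 1.55 CPM. Tenocyte-like cells of E10-P56 had 6.75 CPM, from 10 UMIs in 3 cells, 8 of them in 1 cell, and were below fibroblast-like cells once the cells with the highest doublet scores were left out.

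**Figure D3:**
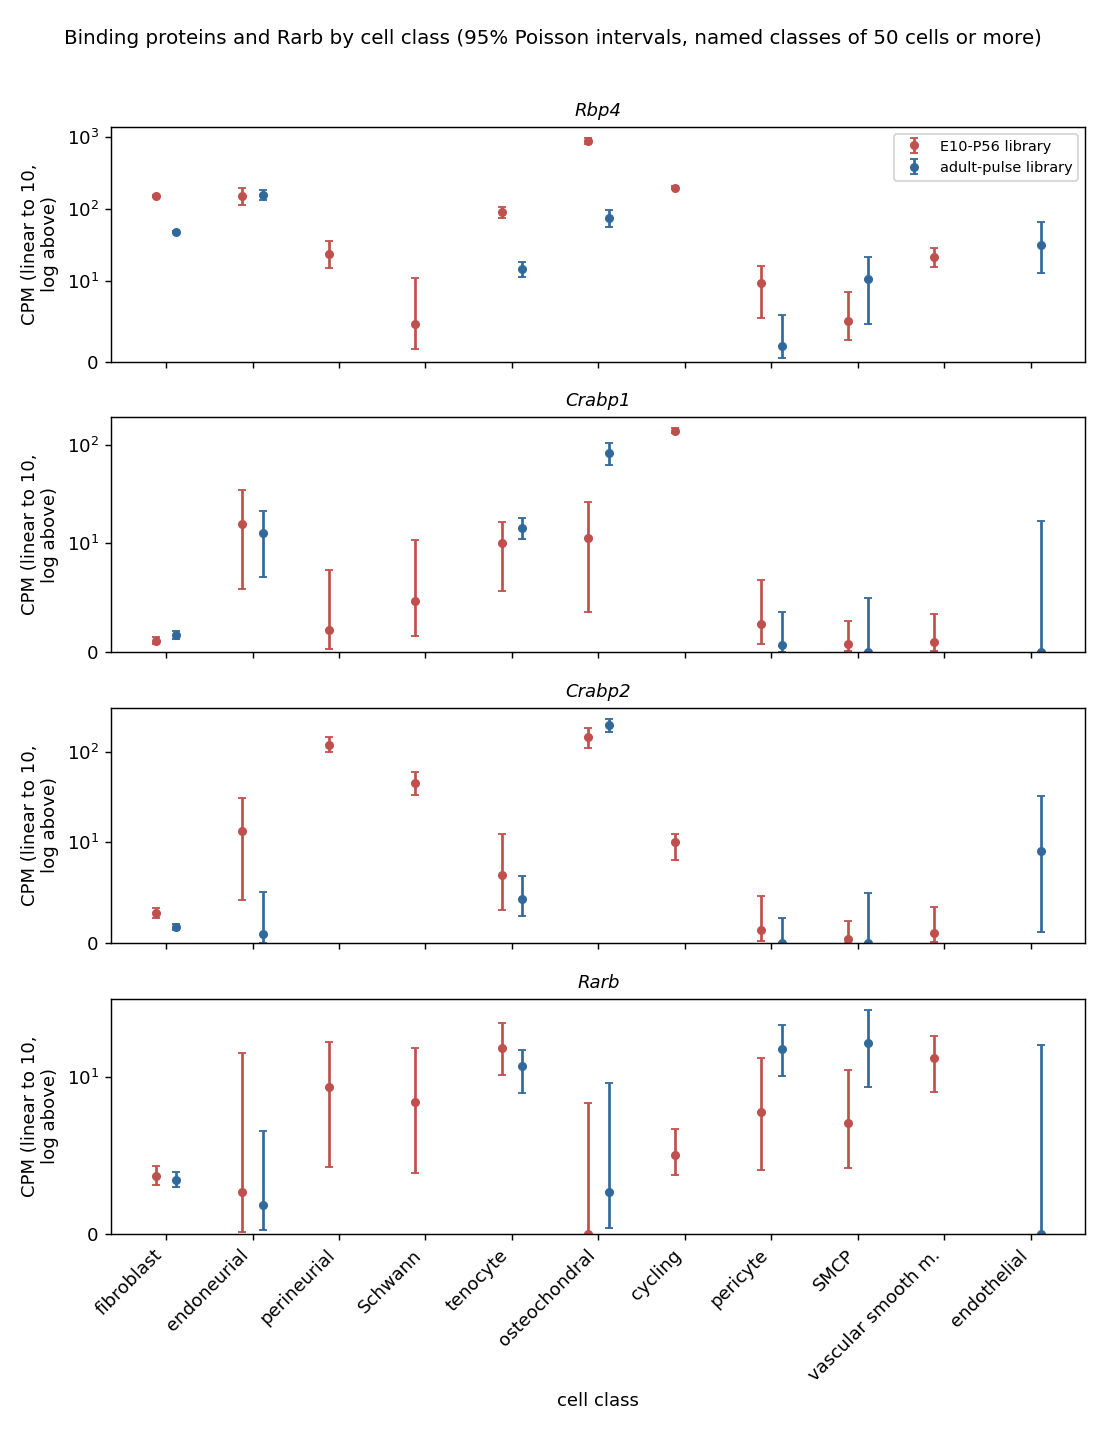
CPM (y axis, linear to 10 and logarithmic above) of *Rbp4*, *Crabp1*, *Crabp2* and *Rarb* in each named cell class of 50 cells or more (x axis), with exact 95% Poisson intervals as bars, E10-P56 in red and the adult pulse in blue. *Crabp1* stood at 141 CPM in the *Mki67*-led (cycling) class of E10-P56 and *Crabp2* at 145 and 197 CPM in the osteochondral-like classes, against 2.94 CPM or less for both genes in fibroblast-like cells.

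*Rarb*, the receptor whose promoter holds the DR5 shown above, was low in all populations and highest outside the fibroblast-like cells. In E10-P56 tenocyte-like cells had 16.2 CPM (10.4–24.1) and vascular smooth muscle cell (VSMC)-like cells 13.6 CPM (9.07–19.7), which did not differ beyond their intervals, and the latter had 7.48 CPM under a mitochondrial limit of 5%. Among adult-pulse cells smooth muscle cell progenitor (SMCP)-like cells had 17.6 CPM (9.38–30.1), pericyte-like cells 15.8 CPM (10.1–23.5) and tenocyte-like cells 11.9 CPM (8.98–15.5), again within one another's intervals. The 36 adult perineurial-like cells, too few for this order, had 35.3 CPM (12.9–76.7), from 6 UMIs in 4 cells. In E10-P56 the intervals of perineurial-like, Schwann-like, pericyte-like and SMCP-like cells also overlapped those of tenocyte-like and VSMC-like cells. Against 3.70 and 3.44 CPM in fibroblast-like cells, tenocyte-like cells were 4.38-fold and 3.46-fold higher, and pericyte-like cells 2.11-fold (1.07–3.80) and 4.59-fold (2.87–7.03) higher. In the classes where *Rarb* was highest, *Aldh1a2* stood at 11.5 CPM (tenocyte-like) and 9.26 CPM (VSMC-like) in E10-P56, against 81.8 CPM in fibroblast-like cells. In the adult pulse it stood at 1.35 CPM (SMCP-like, 1 UMI), 5.93 CPM (pericyte-like) and 6.94 CPM (tenocyte-like), against 50.7 CPM. Perineurial-like and pericyte-like cells of E10-P56, with 9.36 and 7.80 CPM of *Rarb*, had 22.9 and 3.90 CPM of *Aldh1a2*. *Aldh1a1* in tenocyte-like and VSMC-like cells of E10-P56 stood at 45.2 CPM (35.0–57.4) and 11.7 CPM, against 52.0 CPM in fibroblast-like cells. In SMCP-like, pericyte-like and tenocyte-like cells of the adult pulse it stood at 28.4, 10.5 and 25.8 CPM, against 59.0 CPM. For *Aldh1a3* the levels in the same order were 4.72 and 10.7 CPM (against 46.5 CPM), and 1.35, 13.2 and 20.4 CPM (against 44.8 CPM). The relation of these levels to *Rarb* was not tested.

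*Rarg*, the other receptor of the set and one that skin and cartilage are known for, was the most even of the 9 genes across populations of 50 cells or more. In E10-P56 it ran from 106 CPM (86.5–129) in perineurial-like and 92.7 CPM (66.6–126) in osteochondral-like cells down to 31.2 CPM in pericyte-like cells and 8.84 CPM (4.57–15.4) in the *Cxcl5*-led cluster, and most neighbours above the latter shared their intervals. In the adult library it ran from 72.8 CPM (68.1–77.8) in the *Dmkn Sbsn* cluster to 29.96 CPM in endoneurial-like cells. It was detected in 33.0% and 30.2% of fibroblast-like cells and 9.93% and 10.1% of pericyte-like cells, and after thinning to 1500 UMIs in 7.11% and 7.15% against 6.00% and 4.79%.

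Against fibroblast-like cells, the mural classes were low in most of the set. Of 8 members compared in pericyte-like cells of E10-P56, 6 were lower by 2-fold or more and *Rarb* was higher, where 15.7% of all genes were lower and 17% higher. In the adult pulse 5 of 7 were lower and *Rarb* higher (14.2% and 13.8%). *Aldh1a2* was 21.0-fold and 8.55-fold lower in pericyte-like cells and *Aldh1a3* 11.9-fold and 3.40-fold lower. In SMCP-like cells 6 of 8 were lower and 0 higher in E10-P56 (14.2% and 9.59%) and 5 of 7 lower and 1 higher in the adult pulse (11.6% and 13.5%), and in VSMC-like cells 6 of 8 were lower and 1 higher (17.3% and 10.8%). In endoneurial-like cells 0 of 8 members were lower in either library, near the share of all genes (8.19% and 8.22%). In E10-P56, 2 of 8 were higher (14.3%), *Aldh1a1* and *Crabp2*, the latter from 5 UMIs in 1 of 68 cells. In the adult pulse 3 of 8 were higher (7%), *Aldh1a1*, *Rbp4* (3.31-fold) and *Crabp1*, the last from 14 UMIs in 8 of 150 cells. In tenocyte-like cells 3 of 8 members were lower and 2 higher in E10-P56 (10.2% and 7.36%) and 5 of 9 lower and 3 higher in the adult pulse (11.9% and 6.49%), with *Aldh1a2* 7.13-fold and 7.31-fold lower. The 17 *Aldh1a2* UMIs of tenocyte-like cells of E10-P56 came from 2 of 237 cells, 15 of them from 1 cell. In perineurial-like cells 4 of 8 were lower and 3 higher (11.2% and 13.4%), with *Rarg* 2.26-fold higher and *Rbp4* 6.33-fold lower. In osteochondral-like cells 4 of 8 and 4 of 9 were lower (12% and 12.2%) and 2 higher in each library (10.3% and 8.4%). In Schwann-like cells 5 of 8 were lower and 2 higher (15% and 15.4%), and in the *Mki67*-led cluster 4 of 9 lower and 2 higher (14.4% and 6.71%), with *Aldh1a2* 9.26-fold lower.

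Between the libraries, fibroblast-like cells differed by 2-fold or more in 2 of the 9 genes. *Adh1* was at 49.1 CPM in E10-P56 and 128 CPM in the adult pulse, 2.60-fold (2.47–2.73) higher in the latter. *Rbp4* was at 151 CPM and 47.4 CPM, 3.19-fold (3.05–3.34) lower in the adult pulse. Over all 12312 genes compared, 8.14% were 2-fold apart or more, 4.66% as far apart as *Adh1* and 3.32% as far as *Rbp4*. *Aldh1a2* had 81.8 and 50.7 CPM, a ratio of 0.619 (0.589–0.651), and *Crabp2* a ratio of 0.527 (0.397–0.699). The ratios of *Aldh1a1* (1.13), *Aldh1a3* (0.963), *Rarb* (0.931) and *Rarg* (1.03) lay near 1, and that of *Crabp1*, with 1.05 and 1.55 CPM, was 1.47 and turned in 6 of 12 settings. Different clusters held most fibroblast-like cells of the libraries when both were clustered together: 1575, 1247 and 785 cells of E10-P56 were in clusters led by *Krtdap* and *Dmkn*, by *Aldh1a2* and by *Car3* and *Cxcl13*, and 2407, 1438 and 1404 adult cells were in clusters led by *Smoc2* and *Hsd11b1*, by *Smpd3* and *Gm12840* and by *D630033O11Rik* and *Fam167a*. Genes of fat cells moved with the library too. The 7 adipocyte markers summed to 381 CPM in fibroblast-like cells of E10-P56, with 4 above 5 CPM, and to 20.01 CPM in the adult pulse, with 1, and *Adipoq* was at 11.8 and 1.86 CPM. Their part in the *Adh1* and *Rbp4* ratios was not tested.

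*Rbp4* was lower in the adult pulse in most populations compared. It was 6.08-fold lower in the *Pi16* subset, 2.31-fold in *Apoe/Cxcl13*, 2.39-fold in *Clu/Meox1* and 11.7-fold (8.86–15.8) in osteochondral-like cells, each past 2-fold in every setting of the processing that gave a value. In tenocyte-like cells it was 6.13-fold (4.54–8.36) lower, with 89.1 CPM in E10-P56 and 14.5 CPM in the adult pulse, but the former level ran from 32.2 to 268 CPM over 11 settings, and 5 of them had enough UMIs for a ratio. Adipocyte markers summed to 22.3 CPM in E10-P56 and 16.3 CPM in the adult pulse in tenocyte-like cells, to 20.4 and 0 CPM in osteochondral-like cells and to 1624 and 173 CPM in the *Apoe/Cxcl13* subset, and their part in these folds was not tested. Nor was that of the marker differences of the osteochondral-like classes given above. Endoneurial-like cells had 151 and 157 CPM, a ratio of 1.04, and 0 of 3 members compared there passed 2-fold, where 6.22% of all genes did.

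Ratios of the *Hmcn2/Smoc2* subset set 348 cells of E10-P56 against 2444 adult cells. They left out the *Col8a1 Cilp* cluster of E10-P56, which met *Hmcn2* and *Smoc2* but kept no subset name. *Aldh1a2* in the *Hmcn2/Smoc2* subset was 2.17-fold (1.98–2.38) lower in the adult pulse. It passed 2-fold in that direction in all 9 settings that gave a value. In the *Pi16* subset it was 2.25-fold (1.78–2.87) higher, at 9.94 and 22.4 CPM, with most adult UMIs in the *Fam167a Stmn4* cluster, but 5 of 11 settings turned the direction, down to a log2 ratio of −1.22. Of the members compared, 2 of 7 passed 2-fold in *Pi16* (6.35% of all genes) and 2 of 6 in *Hmcn2/Smoc2* (6.59%), the other there being *Aldh1a3*, 2.25-fold (1.22–4.58) higher, which turned in 3 of 9 settings. In the *Apoe/Cxcl13* subset 2 of 5 passed (6.04%), with *Adh1* 3.69-fold higher in the adult pulse and so in all 11 settings, and in *Clu/Meox1* 1 of 5 (4.02%), with *Adh1* at a ratio of 1.99. In tenocyte-like cells 2 of 5 passed (7.31%), among them *Aldh1a3*, 4.31-fold (2.01–11.03) higher, and in osteochondral-like cells 1 of 2 (8.24%). SMCP-like cells had 1 member to compare, which did not pass (8.25%), and pericyte-like cells none.

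**Figure D4:**
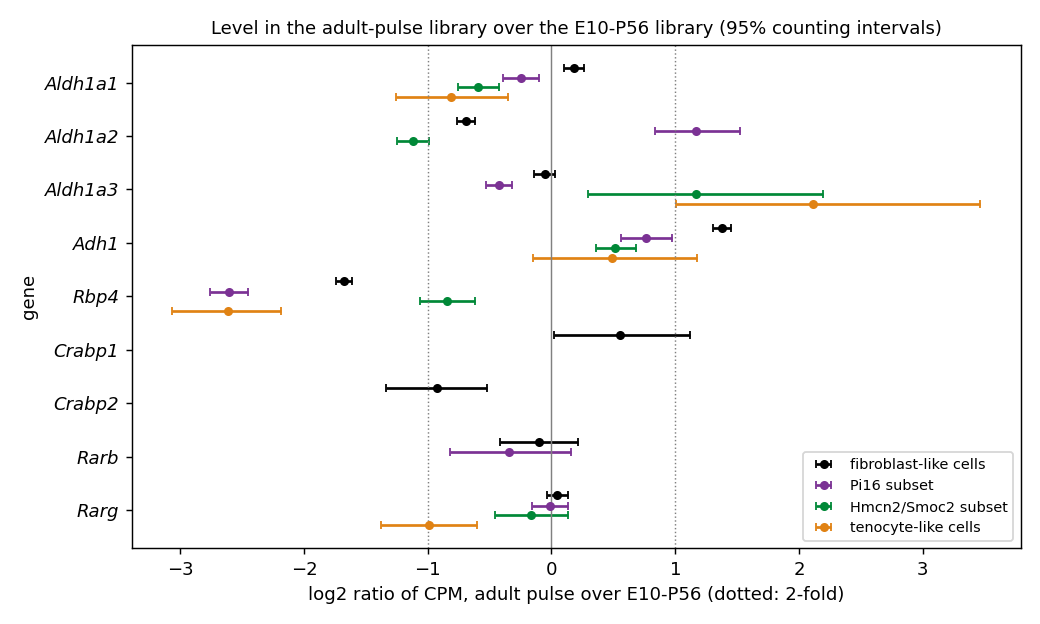
log2 ratio of CPM in the adult pulse over E10-P56 (x axis) for each gene (y axis) in fibroblast-like cells (black), the *Pi16* subset (purple), the *Hmcn2/Smoc2* subset (green) and tenocyte-like cells (orange), with 95% counting intervals as bars, dotted lines at 2-fold and no point where UMIs were too few. *Rbp4* lay below 0 in all 4, and *Aldh1a2* lay above 0 in the *Pi16* subset (1.17, a direction that 5 of 11 settings turned) and below 0 in the *Hmcn2/Smoc2* subset (−1.12).

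Other genes of the pathway were taken from a list of 64, of which 62 were in the files and 45 had 100 UMIs or more. In fibroblast-like cells 42 were compared between the libraries, and 4 were higher and 2 lower in the adult pulse by 2-fold or more (4.2% and 3.94% of all genes). *Lrat*, which esterifies retinol for storage, was 35.9-fold (17.9–84.3) lower and the retinol dehydrogenase *Dhrs9* 3.74-fold lower. Higher were the lipases *Lipe* (2.05-fold) and *Ces1d* (4.35-fold) and the carotenoid-cleaving enzymes *Bco1* (4.79-fold) and *Bco2* (6.63-fold). Between subsets of E10-P56, 4 of 28 were higher and 3 lower in *Hmcn2/Smoc2* than in *Pi16* (6.39% and 6.28% of all genes). Among them, the retinaldehyde reductase *Dhrs3* was 2.72-fold higher, with *Nr2f6* (2.44-fold) and *Tgm2* (4.26-fold), and *Adh7* was 12.4-fold and *Rdh10* 2.18-fold lower. *Dhrs9* had 0 UMIs in *Hmcn2/Smoc2* of E10-P56, at least 12.5-fold lower. For the adult pulse 5 of 39 were higher and 4 lower (6.32% and 5.29%). Among these, *Dhrs3* (3.46-fold), *Ces1d* (3.10-fold), *Cyp26b1* (4.55-fold) and *Tgm2* (2.25-fold) were higher, and *Adh7* (11.8-fold), *Bco1* (11.5-fold), *Bco2* (79.4-fold) and *Dhrs9*, with 1 UMI, were lower. In both libraries *Aldh1a2*, *Adh1*, *Dhrs3* and *Tgm2* were thus higher in the *Hmcn2/Smoc2* subset, and *Aldh1a3*, *Dhrs9* and *Adh7* in the *Pi16* subset. These are sums over a subset, and whether the listed genes share cells with the members was not tested. The adult *Fam167a Stmn4* cluster, named *Pi16*, held both *Aldh1a2* (39.8 CPM) and *Aldh1a3* (56.9 CPM).

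Among the classes, endoneurial-like cells held the retinol uptake receptor *Stra6* at 60.9 CPM in E10-P56 and 22.7 CPM in the adult pulse, against 0.0979 and 0.138 CPM in fibroblast-like cells. Their level of *Rdh10*, the main retinol dehydrogenase of the embryo, was 127 and 38.1 CPM against 12.8 and 12.9 CPM, and that of *Cyp26b1*, which breaks retinoic acid down, was 74.2 and 52.7 CPM against 13.2 and 16.7 CPM. Of the list, 9 of 39 genes were higher and 4 lower in these cells in E10-P56 (14.3% and 8.19% of all genes), and 5 of 41 and 2 in the adult pulse (7% and 8.22%). Osteochondral-like cells had *Cyp26b1* at 90.5 CPM and *Cyp26a1* at 24.9 CPM in E10-P56 and both at 5.32 CPM in the adult pulse, with 3 of 39 higher and 3 lower in the former (10.3% and 12% of all genes) and 3 of 41 and 7 in the latter (8.4% and 12.2%). *Cyp26a1* was among the listed genes with fewer than 100 UMIs. The adult level of 5.32 CPM was near the 3.99 CPM that 3 UMIs give in that class. The *Mki67*-led cluster held *Fabp5*, a fatty acid-binding protein that also binds retinoic acid, at 274 CPM, against 13.6 CPM in fibroblast-like cells, with 4 of 41 higher and 7 lower (6.71% and 14.4% of all genes). *Fabp5* was at 213 and 76.4 CPM in pericyte-like cells, where 8 of 40 were higher and 8 lower in E10-P56 (17% and 15.7% of all genes) and 8 of 41 higher and 9 lower in the adult pulse (13.8% and 14.2%). Perineurial-like cells had *Nr2f2* at 1820 CPM, with 8 of 40 higher and 6 lower (13.4% and 11.2%). Tenocyte-like cells had 2 of 39 higher and 7 lower in E10-P56 (7.36% and 10.2%) and 3 of 41 and 9 in the adult pulse (6.49% and 11.9%). Receptors beside *Rarb* and *Rarg* were present in fibroblast-like cells, with *Rara* at 27.9 and 30.1 CPM, *Rxra* at 24.2 and 17.1 CPM, *Rxrb* at 18.6 and 15.5 CPM and *Rxrg* at 2.96 and 2.15 CPM.

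The genes whose levels ran most like those of each member were taken by Pearson's r of log2(CPM + 5) over the 30 populations of both libraries, which share library, depth and, for fibroblast clusters, cell type, so that r is a description only. *Aldh1a2* ran most like *A730056A06Rik* (r = 0.89), *Aldh1a3* like *Pi16* (0.82), *Aldh1a1* like *Hsd11b1* (0.80) and *Adh1* like *Psen2* (0.85). *Rbp4* ran most like *Gxylt2* (0.82), *Crabp1* like the replication gene *Rrm2* (0.82), *Crabp2* like *Dync1i1* (0.80), *Rarb* like *Zscan2* (0.77) and *Rarg* like *Sema3d* (0.76). Between the members themselves, r was strongest for *Rbp4* and *Rarb*, which ran in opposite directions (−0.65), though *Rarb* had few UMIs in many populations. *Aldh1a1* and *Aldh1a2* (0.63) and *Crabp2* and *Rarg* (0.59) came next and ran alike. For *Aldh1a2* and *Aldh1a3* r was −0.04.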

How the data were processed

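Raw UMI counts, 1 matrix of genes by cell barcodes for each of 2 libraries, were deposited by the authors for sorted tdTomato+ SkM cells (10x 3′), without normalization. The submitters' processing notes name mm10 and Cell Ranger, version 5.0.0 (E10-P56) or 3.0.2 (adult pulse). Fold ratios and CPM were computed here.

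Barcodes needed 1500 UMIs or more, of which 10% or less mitochondrial, to be kept as cells, which left out 1310 and 839 barcodes of E10-P56 and 465 and 163 of the adult pulse. Doublets were not removed. After log normalization, 2000 variable genes, without the members and the pathway list, gave 30 principal components and a graph of 20 neighbours, clustered with the Leiden method at a resolution of 0.5, both libraries together for classes and fibroblast-like cells of each library alone for subsets. A name needed 3 markers present in 10% of cells with a log2 fold of at least 1 (5 CPM added), and a subset name also needed one of its markers among its 10 leading genes, a condition added after a first run. Names were rebuilt from counts and can place cells differently from the study. Populations of 50 cells or more were ordered; a cluster of E10-P56 without a class name was placed in these orders but left out of ratios and r.

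Ratios were taken for genes with 100 UMIs or more over both sides and called at 2-fold; a side with 0 UMIs was set to 3 counts. Shares carry exact Clopper-Pearson intervals and ratios exact conditional ones, at 95%, and all cover counting error only. With 1 library per group no test was made. All 9 members were named in every population, pathway genes from a list of 64, and for each member the genes with the highest r; members, lists and markers were chosen with earlier results of these data known. Alternatives were tried for the UMI minimum, mitochondrial limit, doublets (Scrublet in scanpy 1.11.5), resolution, joint clustering, variable genes, naming, CPM, averaging and thinning. Python 3.11.15, numpy 2.4.6, scipy 1.17.1, pandas 2.3.3, scikit-learn 1.9.0, leidenalg 0.10.2, python-igraph 0.11.9 and matplotlib 3.10.9 were used. The ratio step was tested on simulated Poisson counts, so the coverage of its intervals there was nearly fixed in advance. Clumping of UMIs in single cells was not simulated. Values of 1 gene of the pathway list are not reported here.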

Additional observations from a re-analysis of the deposited data

Results flagged for a closer look

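Some signal lay in barcodes that the filters had left out. In E10-P56 the 1310 barcodes under the UMI minimum held 19 *Crabp2* UMIs, or 15.5 CPM (9.35–24.3), above the 7.78 CPM of kept cells, and the 839 barcodes over the mitochondrial limit held 44 *Rarb* UMIs, or 11.8 CPM (8.56–15.8), above 4.83 CPM in kept cells. In the adult pulse the 465 barcodes under the UMI minimum held 46 *Rbp4* UMIs, or 107 CPM (78.5–143), above 45.2 CPM in kept cells. What these barcodes were was not tested.

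*Aldh1a2* went in opposite directions between the libraries in 2 fibroblast subsets, with a log2 ratio of the adult pulse over E10-P56 of 1.17 in the *Pi16* subset and −1.12 in the *Hmcn2/Smoc2* subset. With 1 library per labelling time the difference was not tested, and the direction in the *Pi16* subset turned in 5 of 11 settings. The *Hmcn2/Smoc2* ratio left out the *Col8a1 Cilp* cluster of E10-P56, which met *Hmcn2* and *Smoc2* but kept no subset name.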

How the results depend on the processing

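No paired analysis was possible because each labelling time had 1 library. Between the libraries in fibroblast-like cells, *Adh1* (log2 ratio 1.31 to 1.62) and *Rbp4* (−1.75 to −1.53) passed 2-fold in all 12 settings, and the count of 2 members became 4 with means of per-cell CPM, where *Aldh1a2* (−1.03) joined. Between the libraries in the *Pi16* subset, *Aldh1a2* (1.17) turned to −0.85 with a minimum of 3000 UMIs, −0.77 with a mitochondrial limit of 5%, −0.64 with none, −1.22 at a resolution of 1.0 and −0.999 with cells named by their own markers, and the count of 2 became 1 in 5 settings. In the *Hmcn2/Smoc2* subset *Aldh1a3* (1.17) turned to −0.33 without the highest doublet scores, −0.13 with each library clustered alone and −0.26 with members among the variable genes, and the count of 2 became 4 with cells named by their own markers. In tenocyte-like cells the count of 2 became 0 in 3 settings and 1 in 4, mostly for want of UMIs, in osteochondral-like cells 1 became 2 with a minimum of 3000 UMIs, and in *Clu/Meox1* 1 became 2 in 3 settings and 3 in 2. Against fibroblast-like cells, endoneurial-like cells went from 2 members to 4 in E10-P56 in 3 settings and from 3 to 5 in the adult pulse at a resolution of 1.0, and *Crabp2* in tenocyte-like cells of E10-P56 turned from 1.20 to −2.01 without the highest doublet scores. Members highest in a fibroblast-like population numbered 3 (E10-P56) and 5 (adult pulse), and 6 and 8 with cells named by their own markers. The share of all genes highest in such a population was not computed. These counts therefore show only that the naming moved them, and say nothing particular about the set. The causes of the changes were not tested. Of 272 counts recomputed, 246 stayed within 1.5 times, and of 1670 log2 ratios 1436 stayed within their counting interval. The 9 turns given above are those of ratios that passed 2-fold. *Aldh1a3* was less frequent in cells with *Aldh1a2* in all 13 settings in both libraries, but not every setting could change this. Leaving mitochondrial and ribosomal protein genes out of CPM could not move these shares. The settings without the *Kcnj8 Tmem238* cluster or without the shared barcodes only left out few cells. Leaving out the *Kcnj8 Tmem238* cluster or the barcodes found in both libraries, both added after the data were seen, moved none of 216 levels beyond its interval in either case. Both kept the clustering and names. The former could change only levels of the fibroblast-like class of E10-P56, and the latter left out 11 cells per library. These outcomes were therefore nearly fixed in advance, and they count in the totals above. Populations that fell below 50 cells under a setting gave no value there.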
